A study of Mus musculus with 2 samples.

Results

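Integrins are the receptors through which cells grip matrix proteins, clotting proteins and each other. Here 10 integrin subunit genes were followed in mouse megakaryocytes, the large blood cells that shed platelets: Itga2b, Itgb3, Itga2, Itga6, Itgb1, Itga5, Itgav, Itga4, Itgal and Itgb2. They were chosen by name as the subunits of platelet and leukocyte integrins, and all 10 were found among the 43346 Ensembl genes of the deposited tables, with 50 annotated transcripts. The data are 2 libraries of polyadenylated RNA, replicates 1 and 2 of a single group, from primary megakaryocytes of mouse embryos at day 14.5 with males and females pooled. Strain, genotype and any treatment are not named in the labels, and how the cells were isolated is not given in the sources used here. Both libraries cite the same biosample and donor, so they may differ for technical reasons alone. There is no second condition, and differences between the libraries are therefore given as measurements without a test.

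Each integrin is a pair of 1 alpha and 1 beta subunit, and a subunit reaches the cell surface only with a partner. The pair of Itga2b and Itgb3 is the fibrinogen receptor of platelets, GPIIb/IIIa, which links platelets in a clot and whose alpha subunit, CD41, marks megakaryocytes. Itgb1 pairs with Itga2 to bind collagen, with Itga5 or Itga4 to bind fibronectin and with Itga6 to bind laminin, Itgav pairs with Itgb3 and other beta subunits to bind vitronectin, and Itgal with Itgb2 forms LFA-1 of leukocytes. Inside the cell, talin and kindlin bind the beta tail and switch the receptor to its active form.

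Replicate 1 held 42099216 expected counts (estimated fragments, which need not be whole) and replicate 2 held 2275922, an 18.5-fold gap in depth. All 12 listed megakaryocyte markers reached a mean of 1 TPM (a level scaled to transcript length and to a fixed library total), led by Gp1bb, and their summed level was 13903 TPM and 23234 TPM in replicates 1 and 2. None of 12 lymphoid markers reached a mean of 1 TPM, and their sums were 3.47 and 2.76 TPM. Of these 12, 6 were at 0 counts in both libraries, among them Cd3e, Cd8a and Ncr1, while Lck had 34 and 0 counts, Cd4 39 and 1, Cd79a 25 and 1, and Cd79b 42 and 2. Macrophage markers (8 of 12 at a mean of 1 TPM or more, with Cd163 and Timd4 at 0 in both) had a summed level of 876 and 230.3 TPM. Granulocyte markers (11 of 12, none at 0 in both) summed to 910 and 167 TPM, those of mast cells and basophils (4 of 6, with Fcer1a and Mcpt4 at 0) to 48.6 and 4.43 TPM, and those of stem and progenitor cells (3 of 7, with Mecom at 0) to 62.7 and 14.1 TPM. Erythroid markers (5 of 10, with Rhag at 0) moved the other way, with sums of 5364 and 13383 TPM, most of it from the globin Hba-a1 at 4480.4 and 12715 TPM. The macrophage and granulocyte sums come back below beside the leukocyte integrins.

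The transcript tables divided several integrin genes between their full coding form and shorter annotated forms, and 3 stretches of sequence show what separates those forms. The first 2 are intron sequence, each opening a non-coding Itga2b transcript, and the third is the alternative exon of Itga6 that sets its cytoplasmic tail. Capitals mark the stretch that is absent from the other form, lower case marks up to 15 bases of shared exon beside it, and all are written 5′ to 3′ from GENCODE M21 on GRCm38.
Itga2b-207, first 190 bases: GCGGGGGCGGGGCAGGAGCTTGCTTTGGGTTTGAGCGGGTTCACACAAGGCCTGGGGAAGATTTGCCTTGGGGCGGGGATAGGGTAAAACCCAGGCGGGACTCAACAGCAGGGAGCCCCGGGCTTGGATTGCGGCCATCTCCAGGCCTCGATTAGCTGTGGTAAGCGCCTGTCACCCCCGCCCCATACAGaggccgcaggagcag
Itga2b-210, first 131 bases: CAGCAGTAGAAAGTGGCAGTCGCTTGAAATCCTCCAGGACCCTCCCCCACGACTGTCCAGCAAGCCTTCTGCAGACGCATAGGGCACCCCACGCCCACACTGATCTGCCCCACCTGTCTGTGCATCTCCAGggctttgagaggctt
Itga6-201, exon 25: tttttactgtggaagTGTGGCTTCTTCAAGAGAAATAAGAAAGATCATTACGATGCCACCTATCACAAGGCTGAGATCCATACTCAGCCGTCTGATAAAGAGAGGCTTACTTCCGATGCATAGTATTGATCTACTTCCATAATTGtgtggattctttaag
The Itga2b-207 stretch (chr11:102456001-102456190, minus strand) lies in intron 27 of Itga2b-201, the coding transcript of 30 exons, and runs without a splice into the next exon. The Itga2b-210 stretch (chr11:102458435-102458565, minus strand) lies in intron 20 in the same way. The Itga6 stretch (chr2:71853534-71853663, plus strand) is exon 25 of 26, has 130 bases of which 105 are annotated as coding, and is skipped in Itga6-202. These coordinates are those of mm10, the assembly of the deposited tables, which is the same as GRCm38.

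Itga2b stood far above all other integrin genes. Its level was 4430.2 TPM in replicate 1 and 3388 TPM in replicate 2, or 3909 ± 737 TPM (mean ± SD, n = 2), from 198388 and 10215 counts. Its rank among all genes was 32 in replicate 1 and 43 in replicate 2. The authors' posterior mean, deposited beside this estimate, was 4346 TPM in replicate 1 and 2409 TPM in replicate 2 (authors' bounds 2320 to 2496), so the level in the shallower library also depends on the estimate used. Of the TPM summed over 27 integrin genes, Itga2b alone took 90.04% in replicate 1 and 89.4% in replicate 2. The gene lies on chromosome 11 from 102453297 to 102470122 on the minus strand.

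Itgb3, the beta subunit that completes the fibrinogen receptor, was second. Its level was 173 TPM in replicate 1 and 127 TPM in replicate 2 (150.0 ± 32.1 TPM, mean ± SD, n = 2), from 38256 and 1091 counts. Within each library the Itga2b level was 25.7 and 26.6 times the Itgb3 level (mean 26.1 ± 0.680, SD, n = 2). This ratio rests on how fragments were shared among transcripts. From full-length coding transcripts only (an annotated coding sequence of at least 90% of the gene's longest, a measure added after the transcript tables were seen), it was 5.18 in replicate 1 and 36.7 in replicate 2. From expected counts per kilobase of the longest transcript it was 8.73 and 15.8. Itga2b was above Itgb3 in both libraries by all of these measures, and the size of the gap ranged from 5.18 to 36.7. Itgb3 lies on chromosome 11 from 104608000 to 104670476 on the plus strand.

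Of the Itga2b TPM, the larger part came from non-coding annotated forms. Itga2b-201, the only full-length coding transcript of 10, took 20.2% of the gene's TPM in replicate 1 (895 of 4430.2 TPM) and 37.7% in replicate 2 (1279 of 3388 TPM). Itga2b-207, the 623-base form that opens with the intron 27 stretch printed above, took 54.6% and 36.9%. Itga2b-210, of 968 bases and opening in intron 20, took 23.3% and 22.9%. The 3 forms therefore made up nearly all of the gene's TPM in both libraries, and the order of the leading pair was turned in replicate 2, where Itga2b-201 stood just above Itga2b-207.

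In counts, which are not divided by length, the 3437-base coding form led in both libraries. It held 58.4% of the gene's counts in replicate 1 (exact Clopper-Pearson 95% interval 58.2 to 58.6) and 76.5% in replicate 2 (75.7 to 77.3). Itga2b-207 held 23.3% (23.1 to 23.5) and 10.8% (10.2 to 11.4). These intervals do not overlap between the libraries, but they cover counting error only, and not the division of fragments among forms. Of the 623 bases of Itga2b-207, 433 lie in exons of Itga2b-201, so most of its length is shared with the coding form. The remaining 7 transcripts were minor, with Itga2b-206 the highest at 1.14% and 1.21% of TPM.

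**Figure D1:**
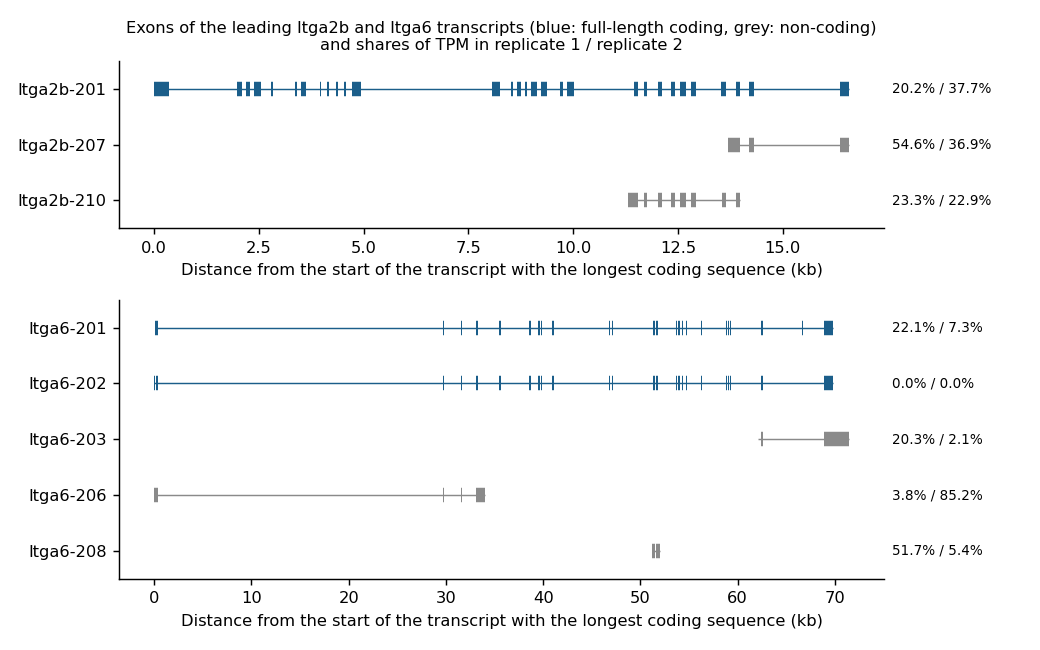
Exons (blocks) and introns (lines) of the leading Itga2b (top) and Itga6 (bottom) transcripts, by distance in kb from the start of the transcript with the longest coding sequence, with shares of the gene's TPM in replicate 1 and replicate 2 at the right. Itga2b-207 and Itga2b-210 cover only the later part of the gene, and Itga6-206 and Itga6-208 cover separate short parts of Itga6.

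Itgb3 was assigned to different forms in the 2 libraries. In replicate 1 all 38256 counts went to the coding Itgb3-201, and Itgb3-202 was listed at 0, which allows a share of up to 0.00784% by counting alone. In replicate 2 Itgb3-202, annotated as a processed transcript without a coding sequence, took 726 of 1091 counts and 72.6% of the TPM. Itgb3-202 has 4375 bases, of which 4258 lie in exons of Itgb3-201. The level of Itgb3-201 alone was 173 and 34.9 TPM, a wider gap than that of the gene as a whole.

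Itga6, the alpha subunit of laminin receptors, was the highest of the Itgb1 partners by gene level. It stood at 73.6 TPM in replicate 1 and 117 TPM in replicate 2 (95.4 ± 30.8 TPM, mean ± SD, n = 2), from 5181 and 343 counts. The gene spans chromosome 2 from 71745616 to 71858416 on the plus strand. Its full-length coding level was much lower, at 16.3 and 8.61 TPM, and on that scale Itga5 was the higher in both, at 19.8 and 27.2 TPM. Itga6-208, a 685-base non-coding form, took 51.7% of TPM in replicate 1 and 5.38% in replicate 2. Itga6-206, a 1542-base non-coding form at the 5′ end of the gene, took 3.81% in replicate 1 and 85.2% in replicate 2. Itga6-203, a 2721-base non-coding form at the 3′ end, took 20.3% and 2.07%. The 2 libraries thus placed most of the Itga6 TPM in stretches of the gene that do not overlap each other, and neither form is full-length coding. A same-strand gene inside the Itga6 span, Gm13663, was listed at 0 and 7 counts. The other annotated genes that overlap one of the 10 spans, among them the opposite-strand Cerkl at Itga4, had 0 counts in both libraries.

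The full-length coding counts of Itga6 fell on the form with the alternative exon printed above. Inclusion of that exon gives the A form of the alpha-6 cytoplasmic tail and skipping it gives the B form. Itga6-201, with the exon, held 2665 and 66.6 counts. Itga6-202, without it, was listed at 0 in both, which by counting alone allows up to 0.0579% of the gene's counts in replicate 1 and 0.875% in replicate 2. The non-coding Itga6-203 also skips exon 25, since its exons join the preceding exon straight to the last, and it held 1516 counts (29.3% of the gene's) in replicate 1 and 11.6 (3.38%) in replicate 2. Of its 2721 bases 1677 lie outside the exons of Itga6-202, so how many of its fragments cross the skipping join is not known from these tables. A level of 0 for skipping is therefore listed for the coding form only. Itga6-201 and Itga6-202 also differ at their 5′ ends, so the exon is not all that separates them.

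Itgb1, the shared beta subunit of these receptors, was at 45.7 TPM in replicate 1 and 55.7 TPM in replicate 2 (50.7 ± 7.09 TPM, mean ± SD, n = 2). It lies on chromosome 8 from 128685654 to 128733200 on the plus strand. Its counts were 5796 and 299. The coding Itgb1-201 took 53.0% of the gene's TPM in replicate 1 and 14.3% in replicate 2, and Itgb1-202, a form annotated as a target of nonsense-mediated decay, took 46.1% and 85.7%. All 2906 bases of Itgb1-202 lie in exons of Itgb1-201, and Itgb1-202 has 15 exons against 16. In both libraries Itgb1 was below Itga6, whose level was 1.61 and 2.10 times that of Itgb1. From full-length coding transcripts that order differed in replicate 1, where Itgb1 was at 24.2 TPM against 16.3 TPM for Itga6, and in replicate 2 the values were 7.95 and 8.61 TPM.

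Itga5, the alpha subunit of the main fibronectin receptor, had a single annotated transcript in the tables and so no division among forms. It measured 19.8 TPM in replicate 1 and 27.2 TPM in replicate 2 (23.5 ± 5.25 TPM, mean ± SD, n = 2), from 3296 and 214 counts. It lies on chromosome 15 from 103344286 to 103366763 on the minus strand. The Itga5 level was 0.433 of the Itgb1 level in replicate 1 and 0.489 in replicate 2.

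Itga2 and Itga4, the other Itgb1 partners among the 10 genes, did not reach a mean of 1 TPM. Itga2, the alpha subunit of the collagen receptor, had 22 counts (0.14 TPM) in replicate 1 and none in replicate 2. The floor of 3 counts is 1.32 CPM (counts scaled to the library total) in replicate 2, so no difference in Itga2 was detectable at this depth. Itga4, which joins Itgb1 as VLA-4, had 298 counts (1.59 TPM) in replicate 1 and 1 count (0.06 TPM) in replicate 2. In replicate 1, 58.7% of the Itga4 TPM lay in Itga4-204, a 1508-base non-coding form at the 5′ end, and the coding Itga4-201 held 0.66 TPM. Itga2 spans 114833081 to 114932100 of chromosome 13 on the minus strand, and Itga4 spans 79255426 to 79333123 of chromosome 2 on the plus strand.

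Itgav, the vitronectin receptor alpha subunit, was at 6.84 TPM in replicate 1 and 10.95 TPM in replicate 2, but from 162 and 11 counts. Nearly all of that level came from Itgav-206, a 688-base form at the 5′ end with 405 coding bases against 3132 in the longest form. Itgav-206 took 95.03% of TPM in replicate 1 and 100% in replicate 2. The full-length Itgav forms held 15.3 counts (0.06 TPM) in replicate 1 and 0 in replicate 2, where a count of 0 allows 27.3% of the gene's 11 counts. By the authors' posterior mean TPM, Itgav-206 took a smaller part, 5.71 of 7.03 TPM in replicate 1 and 5.26 of 11.64 in replicate 2, and its mean share over the libraries was 63.2% in place of 97.5%. The level of the full coding form was not resolved at this depth. The gene lies on chromosome 2 from 83724397 to 83806916 on the plus strand.

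**Figure D2:**
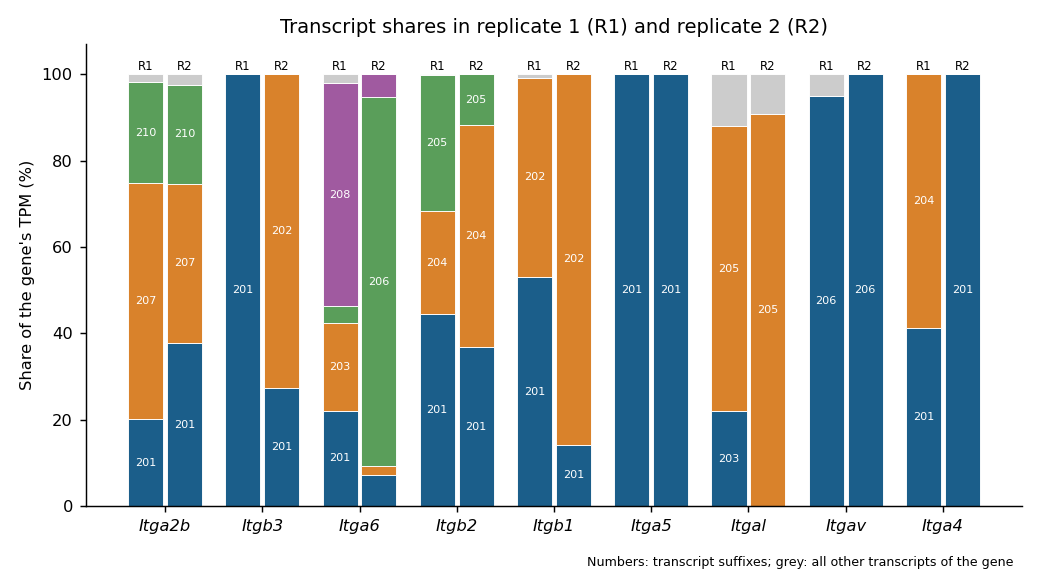
Share of each gene's TPM (percent) taken by its transcripts in replicate 1 (R1) and replicate 2 (R2). Numbers in the bars are transcript suffixes, each colour is 1 transcript within a gene only, and grey is all other transcripts of that gene. Itga2 is left out because it had no counts in replicate 2. The largest block differs between R1 and R2 in Itga2b, Itgb3, Itga6, Itgb1, Itgb2 and Itga4.

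Among the 7 integrin genes with several transcripts and a mean of at least 5 TPM, 2 (Itgav and Itgal) had the same leading transcript by TPM in both libraries. Over all such genes the share was 66.5% (3061 of 4601). By counts 3 of the 7 agreed, with Itga2b added, against 68.3% of all genes. When only protein-coding transcripts were compared, 5 genes were left and all 5 (Itga6, Itgal, Itgav, Itgb1 and Itgb2) had the same leading form. Over all genes the same comparison gave 70.8% (2399 of 3389). The other protein-coding forms of Itga6, Itgb1 and Itgb2 held at most 8.32 counts in either library, so agreement had little room to fail there. Itga2b and Itgb3 were left out because each has 1 protein-coding form. Among all transcripts, the leader of Itgb1 and Itgb2 passed from a coding form to one annotated for nonsense-mediated decay, and that of Itga6 from 1 non-coding form to another.

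Full-length coding transcripts gave a lower level than all transcripts together for 7 of the 10 genes in replicate 1. There the coding share of TPM was 100% for Itgb3, Itga5 and Itga2, 78.0% for Itgal, 53.0% for Itgb1, 44.5% for Itgb2, 41.2% for Itga4, 22.1% for Itga6, 20.2% for Itga2b and 0.877% for Itgav. In replicate 2 it was 27.4% for Itgb3, 14.3% for Itgb1 and 7.35% for Itga6, each below its value in replicate 1, as was Itgb2 at 36.8%. The share was higher in replicate 2 for Itga2b (37.7%), Itgal (100%) and Itga4 (100%, from 1 count), it was 0 for Itgav and 100% for Itga5, and Itga2 had no counts there. Itga2b led all 10 genes on this scale too, at 1087 ± 272 TPM (mean ± SD, n = 2).

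**Figure D3:**
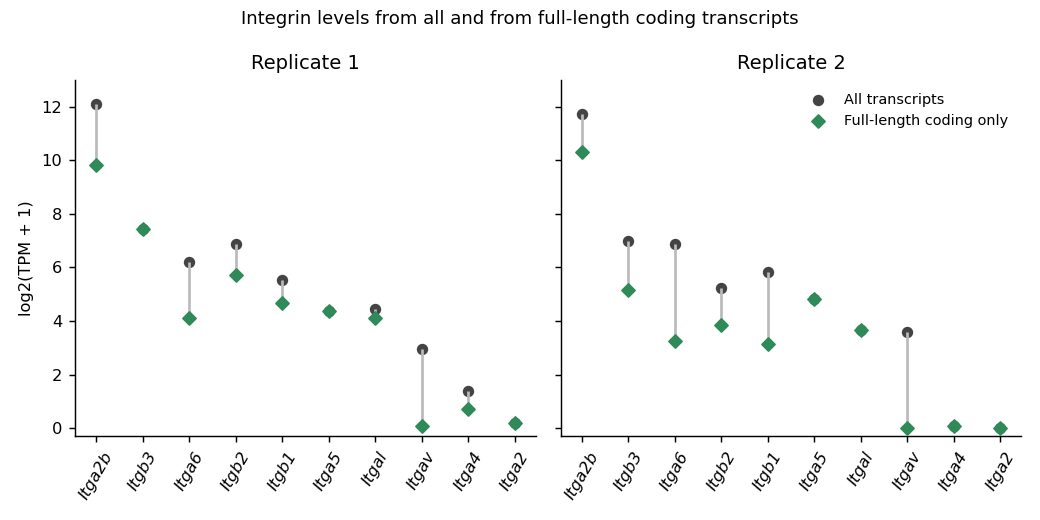
Level of each integrin gene, as log2(TPM + 1), from all its transcripts (circles) and from full-length coding transcripts only (diamonds), in replicate 1 (left) and replicate 2 (right). The gap is widest for Itgav and Itga6 in replicate 2, and absent for Itga5, whose single transcript is coding.

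Itgb2, the beta subunit shared by leukocyte integrins, was the fourth of the 10 genes by mean level. It was at 116 TPM in replicate 1 and 36.4 TPM in replicate 2 (76.2 ± 56.3 TPM, mean ± SD, n = 2), from 11685 and 174 counts. It lies on chromosome 10 from 77530252 to 77565708 on the plus strand. Itgal, the alpha subunit of LFA-1, was at 20.8 TPM in replicate 1 and 11.7 TPM in replicate 2 (16.3 ± 6.40 TPM, mean ± SD, n = 2), from 3047 and 79 counts. It lies on chromosome 7 from 127296260 to 127335138 on the plus strand. Both leukocyte subunits were higher in replicate 1, as by TPM were Itga2b, Itgb3, Itga4 and Itga2. The summed macrophage markers (876 against 230.3 TPM) and granulocyte markers (910 against 167 TPM) were also higher in replicate 1. The part of these cells in the Itgb2 and Itgal levels was not tested, and in bulk RNA fewer cells of a type and less RNA per cell cannot be told apart.

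The Itgal level was 0.179 of the Itgb2 level in replicate 1 and 0.323 in replicate 2 (mean 0.251 ± 0.102, SD, n = 2). From full-length coding transcripts the ratio was 0.314 and 0.879, with Itgal the lower in both. Adding the other known Itgb2 partners Itgam, Itgax and Itgad gave 28.2 TPM of alpha subunits against 116 TPM of Itgb2 in replicate 1, and 12.4 against 36.4 TPM in replicate 2. By gene-level TPM the beta subunit was thus above its summed alpha partners in both libraries. Full-length coding forms held only 44.5% and 36.8% of the Itgb2 TPM, and this sum was not taken from such forms. Around Itgb1 the order by gene-level TPM was the opposite. There Itga2, Itga4, Itga5, Itga6 and Itgav summed to 2.23 times Itgb1 in replicate 1 and 2.79 times in replicate 2.

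The Itgb2 level was split among 3 forms of similar length. The coding Itgb2-201 took 44.5% of TPM in replicate 1 and 36.8% in replicate 2. Of the other 2, both annotated as targets of nonsense-mediated decay, Itgb2-204 took 23.7% and 51.5%, and Itgb2-205 took 31.5% and 11.7%. For Itgb2-204 the authors' own bounds in replicate 2 ran from 1.49 to 19.6 TPM, so its lead there was loosely fixed. Itgal-205 led Itgal in both libraries, with 66.0% and 90.8% of TPM, and Itgal-203, a shorter coding form, took 22.0% in replicate 1 and was listed at 0 in replicate 2, where a count of 0 allows 3 of the gene's 79 counts.

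By mean level the order was Itga2b, Itgb3, Itga6, Itgb2, Itgb1, Itga5, Itgal, Itgav, Itga4 and Itga2. Itga2b and Itgb3 held the first 2 places in both libraries, though Itgb3 was only 1.09 times Itga6 in replicate 2. The neighbouring pairs, Itga6 with Itgb2, Itgb2 with Itgb1 and Itga5 with Itgal, changed order between the libraries and so are not ordered beyond their spread. In each of these pairs a leukocyte subunit was the higher in replicate 1 and the lower in replicate 2. Of the 10 genes 8 reached a mean of 1 TPM, against 22.7% of all 43346 genes, and Itga4 (0.825 ± 1.08 TPM) and Itga2 (0.07 ± 0.099 TPM) did not.

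**Figure D4:**
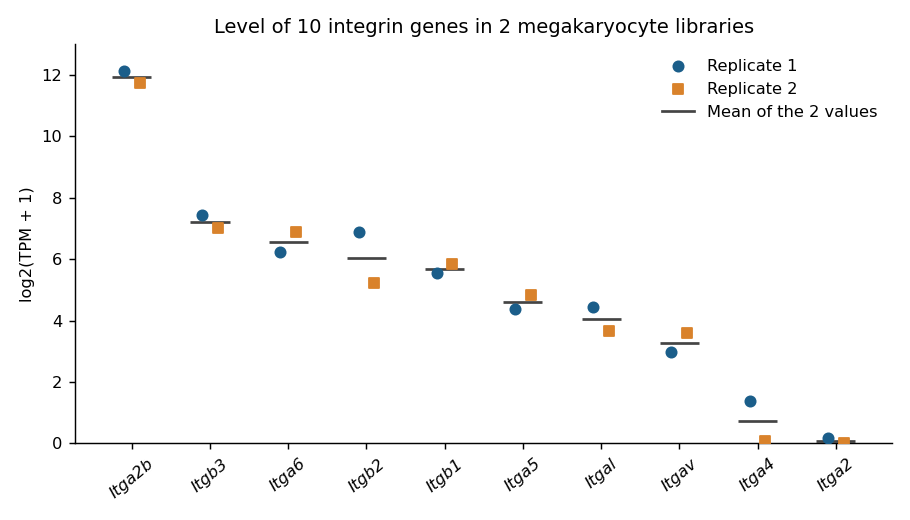
Level of the 10 integrin genes as log2(TPM + 1) in replicate 1 (circles) and replicate 2 (squares), with the mean of the 2 values as a line, ordered by mean TPM. Itga2b is at 4430.2 and 3388 TPM, above all others. By TPM, Itga2b, Itgb3, Itgb2, Itgal, Itga4 and Itga2 are higher in replicate 1, and Itga6, Itgb1, Itga5 and Itgav in replicate 2.

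Ratios of replicate 2 to replicate 1 were taken from counts scaled by TMM, with exact 95% counting intervals. TMM centres a weighted trimmed mean of the log ratios, which need not be their median. Of the 10 genes, 8 had a mean count of at least 100, and Itgav and Itga2 did not, while Itga4 passed only through replicate 1. None of the 8 was at least 2-fold higher in replicate 2, against 15.7% of the 8194 genes at that count, and 2 were at least 2-fold lower, against 33.8%. The 2 were Itgb2, at 0.373 (0.320 to 0.434), and Itga4, at 0.0841 (0.00212 to 0.472). With a minimum of 50 on the mean CPM, which weights the libraries equally, Itga4 dropped out and Itgb2 alone was called, while the share of all genes became 26.4% higher and 15.8% lower. The median log2 ratio was 0.0039 for the 8 genes and -0.30 for the 8194. With the minimum on the mean CPM the median of all genes was 0.37, so its sign depends on the minimum used.

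The remaining ratios were closer to 1. Itga6 was at 1.66 (1.48 to 1.85), Itga5 at 1.63 (1.41 to 1.87), Itgb1 at 1.29 (1.15 to 1.45) and Itga2b at 1.29 (1.26 to 1.32). Itgal was at 0.650 (0.513 to 0.812) and Itgb3 at 0.715 (0.673 to 0.759). For Itga2b the direction depends on the scaling, as the ratio was 0.952 from total counts, 0.928 after removal of the trend with GC content and 0.765 from TPM, and for Itgb1 it was 0.954 from total counts. The 2 subunits of the fibrinogen receptor lay on opposite sides of 1 under TMM, with intervals that do not overlap. They also did so with DESeq2 size factors (1.41 for Itga2b, 0.783 for Itgb3) and after removal of the trend with transcript length (1.32 and 0.670). From total counts, after removal of the GC trend and from TPM, both were below 1, with Itgb3 at 0.528, 0.774 and 0.737. The median log2 ratio of all genes was itself -0.17 with DESeq2 size factors and -0.74 with total counts.

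**Figure D5:**
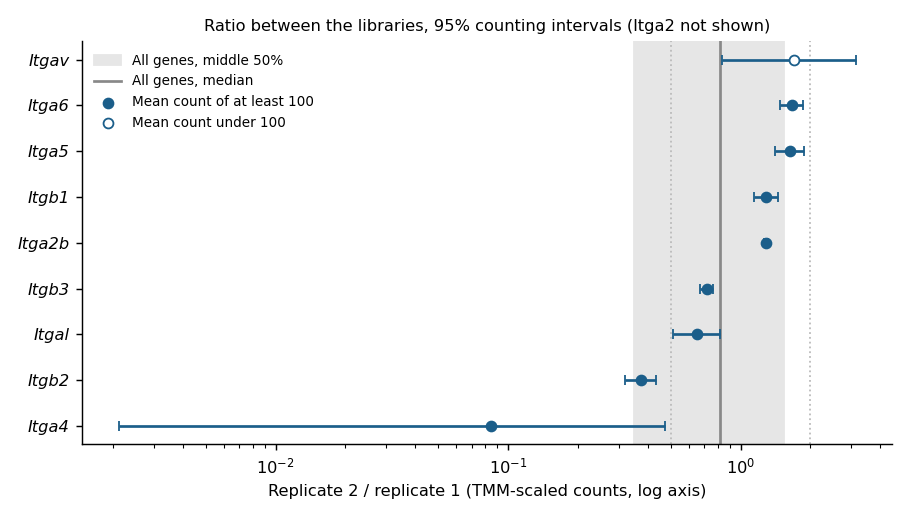
Ratio of replicate 2 to replicate 1 for each integrin gene with counts in both libraries (TMM-scaled counts, log axis), with exact 95% counting intervals. Dotted lines mark 2-fold, and the grey line and band mark the median (0.814) and middle 50% (0.350 to 1.54) of the 8194 genes at a mean count of at least 100. Itgb2 and Itga4 lie beyond 2-fold lower, and Itga4 has the widest interval because it had 1 count in replicate 2.

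Among the other 17 integrin genes, 5 reached a mean of 1 TPM, all far below Itga2b. Itgb5, a partner of Itgav, was at 9.56 TPM in replicate 1 and 4.76 in replicate 2. Itgb4, the epithelial partner of Itga6, was at 5.42 and 7.13 TPM. Itgam, the Mac-1 alpha subunit of myeloid cells, was at 7.2 and 0.71 TPM, and Itgb7, a lymphoid partner of Itga4, was at 5.75 and 1.92 TPM. Itga11, a collagen receptor subunit, was at 2.64 and 0.67 TPM. All 5 had a mean count of at least 100, but met that minimum through replicate 1, with at most 72 counts in replicate 2. Of them 3 were at least 2-fold lower in replicate 2, against 33.8% of all genes. These were Itgam, Itgb7 and Itga11, with 6, 9 and 6 counts in replicate 2. The macrophage and granulocyte sums were also lower there, and the part of such cells was not tested. Itga8 and Itgb6 had 0 counts in both libraries. The 10 genes together held 99.3% of the summed integrin TPM in replicate 1 and 99.6% in replicate 2.

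Of 35 integrin ligand genes, 15 reached a mean of 1 TPM, and the 5 highest were secreted or surface proteins of very different levels. Tgfb1, whose latent form is bound and released by integrins, was at 4153 TPM in replicate 1 and 7376 in replicate 2. Emilin1, a matrix glycoprotein, was at 405 and 487 TPM. Vwf, von Willebrand factor, was at 357 and 336 TPM, and Thbs1, thrombospondin 1 of platelet granules, was at 248 and 417 TPM. F11r, a junctional adhesion molecule that binds LFA-1, was at 90.8 and 22.5 TPM. The 2-fold line was passed by 9 of the 14 ligand genes with enough counts. In replicate 2, 2 of them were higher and 7 lower (all genes: 15.7% higher and 33.8% lower). The 7 lower genes had at most 26 counts in replicate 2, and so met the count minimum through replicate 1. In both libraries 8 of the 35 had 0 counts. Among those 8 were Fga and Fgg, fibrinogen chains made in the liver, and Vtn, vitronectin.

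Of 35 genes of integrin activation and tail binding, 30 reached a mean of 1 TPM. Fermt3, kindlin-3 of blood cells, was the highest at 4842 TPM in replicate 1 and 7381 TPM in replicate 2, above Itga2b in both. Dok2, a docking adaptor of blood cells, was at 1028 and 1513 TPM. Tln1, talin, was at 793 and 656 TPM. Parvb, a partner of integrin-linked kinase, was at 505 and 869.6 TPM, and Rasgrp2, which activates RAP1 upstream of talin, was at 667 and 463 TPM. The other kindlins, Fermt1 and Fermt2, had 0 counts in both libraries, as did Itgb1bp2. Among the 29 with enough counts, 3 passed 2-fold upwards and 4 downwards in replicate 2, where 15.7% and 33.8% of all genes did. The 4 lower genes had at most 80 counts in replicate 2, and so met the count minimum through replicate 1. Of the 3 higher genes Rap1gap did so too, at 161 and 41 counts. The median log2 ratio of the 29 was 0.12 against -0.30 for all genes.

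By distance in log2(TPM + 1) over the 2 libraries, the protein-coding genes nearest to Itga2b were Rpl13a (distance 0.168), Rpl13 (0.172) and Mif (0.251). Those nearest to Itgb2 were Lsm12 (0.0545), Cers2 (0.0657) and Isg20 (0.0791). This likeness rests on 2 libraries and 21464 genes, so it is a likeness of level only.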

How the data were processed

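Polyadenylated RNA of 2 megakaryocyte libraries of 1 group was analysed. The file lists deposited beside the tables give mm10 and GENCODE M4. The aligner, the quantifier and any use of strand were not given in the sources used here. Per the file headers, the authors' gene and transcript tables hold expected counts, TPM and FPKM. Deposited interval bounds of TPM are a score of the authors' quantifier whose level is not stated. The deposited percent of each gene's level per transcript differed from shares recomputed from TPM by at most 0.16 points for these genes.

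Rows of 43346 Ensembl genes were used, with symbols and exons from GENCODE M21 (GRCm38) for 42462. Exon comparisons used the 47 of 50 transcripts whose lengths matched M21. Expected counts were rounded for TMM (edgeR 4.0.16, R 4.3.3; factors 1.16 and 0.859, genes at a mean count of at least 10) and DESeq2 1.42.0 size factors. Ratio calls needed 2-fold and a mean count of at least 100. They are counts of genes past that size, not a statistical test, and the calculation was checked on simulated counts. Shares and ratios have exact 95% Clopper-Pearson intervals, and a count of 0 allows 3 counts (0.0713 CPM in replicate 1, 1.32 CPM in replicate 2). Both cover counting error only, since fragments are not independent molecules. Python 3.11.15 with pandas 2.3.3, scipy 1.17.1, statsmodels 0.14.6 and matplotlib 3.10.9 did the rest.

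The text names all 10 genes with every transcript at 10% of TPM in either library, other integrin genes at a mean of 1 TPM, the 5 highest of the ligand and activation lists, list sums, and the 3 nearest genes to Itga2b and Itgb2. Other transcripts and list genes named outside this rule were chosen after their values were seen. The genes and lists were chosen with earlier results of these data known.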

Additional observations from a re-analysis of the deposited data

How the results depend on the processing

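No paired analysis was possible because there is 1 group. The 8 integrin genes at a mean of 1 TPM stayed 8 at 5 TPM, and were 7 from full-length coding transcripts, which leaves out Itgav, and 8 to 9 when 1 library was left out (9 without replicate 2, with Itga4). The mean Itga2b to Itgb3 ratio of 26.1 was 12.2 from counts per kilobase of the longest transcript and 20.9 from full-length coding transcripts, and that of Itgal to Itgb2, 0.251, was 0.597 from full-length coding transcripts. Genes past 2-fold numbered 2, and 1 with a minimum on the mean CPM of 50, which leaves out Itga4, and 3 with total counts (Itgal added) or the GC trend removed (Itga6 added, higher in replicate 2 at 2.15). Over all genes that minimum left 2576 genes, 680 higher and 407 lower in replicate 2, against 1288 and 2768 of 8194. No minimum gave 3591 higher and 7313 lower of 16108. Of all calls 31.8% were higher, and 14.4% with total counts. Genes with the same leading transcript numbered 2 of 7, and 5 of 5 among protein-coding transcripts only. Other integrin genes at 1 TPM numbered 5, and 10 by posterior mean TPM, which gives a level to genes without counts, and 3 to 5 when 1 library was left out (3 without replicate 1). Leaving out 1 library gave 25.7 to 26.6 for Itga2b to Itgb3 and 0.179 to 0.323 for Itgal to Itgb2. Beyond what is said here, the cause of these shifts was not tested. The depth of replicate 2 limits Itga2, Itga4 and Itgav most.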
